A study of Mus musculus with 12 samples.

Results

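The 10 genes described here encode the core of antigen presentation by the major histocompatibility complex (MHC) of the mouse. They are the class I heavy chains H2-K1 and H2-D1 with their light chain B2m, the class II chains H2-Aa, H2-Ab1 and H2-Eb1, the invariant chain Cd74, both chains of the peptide exchange factor H2-DM (H2-DMa and H2-DMb1), and the class II transactivator Ciita. They were chosen by symbol, each symbol matching 1 row, and make up 10 of the 54532 genes in the deposited table. All 10 were among the 13447 genes whose mean over the libraries was at least 0.5 FPKM (fragments per kilobase of gene length, scaled to the size of the library), the genes that were tested.

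The libraries came from whole liver of mice with an Apoe knockout, which both groups carry. For the 6 control libraries the mice received Gfp-AAV, an adeno-associated virus with a green fluorescent protein gene, and for the other 6 they received Rspo2-AAV, which carries R-spondin 2, a secreted protein that strengthens Wnt signalling. Controls are numbered 1 to 6 in the labels and Rspo2-AAV libraries 1, 2, 4, 5, 6 and 7. The sources used here do not give the vectors' promoter or dose, the time after injection, the diet, the age and sex of the mice, or whether each library is a separate mouse. The p-values therefore measure the spread between these libraries.

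MHC class I molecules sit on nearly every nucleated cell, hepatocytes included, and show peptides made by the proteasome in the cytosol to CD8+ T cells. B2m is needed for the heavy chain to reach the surface. MHC class II molecules are made mainly by dendritic cells, B cells and macrophages and show peptides from the endosome to CD4+ T cells. Cd74 guides the class II chains to the endosome, H2-DM exchanges the Cd74 remnant for a peptide, and Ciita is the factor that switches the class II genes on. Interferon gamma raises both pathways.

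Rspo2 RNA checked the labels: it was at 0 FPKM in every control library and at 122, 49.9, 386, 573, 461 and 265 FPKM in Rspo2-AAV 1, 2, 4, 5, 6 and 7 (exact permutation test, two-sided, p = 0.00216). The recovered reads per library ranged from 14295644 (control 1) to 22195576 (Rspo2-AAV 1). Several libraries stood apart. The share of mitochondrial reads was 10.5% for Rspo2-AAV 2 and 3.53% to 5.89% for the other 11. Xist, a marker of female tissue, reached 42.0 FPKM in control 3, and among the Rspo2-AAV libraries 28.0 in number 1 and 5.57 in number 2. Numbers 4 to 7 are also given alone, since every library with Xist RNA has a lower number, and the labels do not call the numbers a batch. Exocrine pancreas genes made up 7.12% of the reads of Rspo2-AAV 4, 0.642% of those of number 5, 0.0742% of number 6 and 0.00758% of number 7, against at most 0.0034% in the other 8 libraries. The FPKM values of all genes summed to 355547 in Rspo2-AAV 1 and 621337 in Rspo2-AAV 2, the lowest and highest of the 12, so the order of the libraries in the 10 genes is also given after rescaling every library to the same sum (TPM).

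In FPKM, B2m followed H2-K1 across the libraries (Pearson r = 0.914), and H2-Eb1 and H2-Aa followed H2-Ab1 (0.980 and 0.946). Whether their promoters bear on this was not tested. Promoters of 4 of the 10 genes are printed. Each is the stretch before the RefSeq start on GRCm38.p6, 5′ to 3′ on the gene's strand. The RefSeq promoter table had a window for 7 of the 10 genes, and those not printed were not examined one by one. Capitals mark matches to these letters on either strand: ATTGG (the Y box core, bound by NF-Y), GAAANNGAAA and GAANNGAAA (cores of interferon-response elements, bound by IRF factors) and GGGGANTCCCC (a kappa B palindrome). TGATTGG is a longer form of the Y box that holds ATTGG.
H2-Aa, chr17:34287824-34288073, minus strand: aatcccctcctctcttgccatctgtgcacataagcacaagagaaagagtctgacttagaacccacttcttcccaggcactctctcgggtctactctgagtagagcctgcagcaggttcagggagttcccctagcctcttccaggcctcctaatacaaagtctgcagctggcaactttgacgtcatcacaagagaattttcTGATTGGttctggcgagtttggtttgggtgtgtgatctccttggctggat
H2-Eb1, chr17:34305617-34305866, plus strand: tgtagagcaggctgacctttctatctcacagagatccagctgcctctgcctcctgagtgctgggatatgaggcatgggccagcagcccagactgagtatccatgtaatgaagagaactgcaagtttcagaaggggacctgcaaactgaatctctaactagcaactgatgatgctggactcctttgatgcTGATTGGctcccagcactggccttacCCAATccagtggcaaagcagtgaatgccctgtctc
H2-K1, chr17:34000348-34000597, minus strand: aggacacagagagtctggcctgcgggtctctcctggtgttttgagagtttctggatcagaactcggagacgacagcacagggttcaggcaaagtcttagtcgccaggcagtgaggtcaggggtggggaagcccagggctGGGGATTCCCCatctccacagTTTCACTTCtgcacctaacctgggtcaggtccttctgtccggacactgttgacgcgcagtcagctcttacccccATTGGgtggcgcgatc
B2m, chr2:122147437-122147685, plus strand: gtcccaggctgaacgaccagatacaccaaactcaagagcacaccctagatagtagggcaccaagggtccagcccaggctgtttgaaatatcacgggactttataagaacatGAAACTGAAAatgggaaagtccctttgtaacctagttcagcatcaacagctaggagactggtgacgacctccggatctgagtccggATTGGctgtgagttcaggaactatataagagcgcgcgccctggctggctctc

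Both class II promoters printed held TGATTGG, at 50 to 44 bases before the start in H2-Aa and 61 to 55 in H2-Eb1. Of 32851 promoter windows of 250 bases, 7.23% held it. The class I promoters printed held the shorter ATTGG alone, found in 33.8% of windows. B2m had GAAACTGAAA at 139 to 130 bases before its start, a match to GAAANNGAAA, which 2.98% of windows held. In H2-K1 the sequence TTTCACTTC at 90 to 82 bases matched GAANNGAAA on the other strand (6.31% of windows), beside GGGGATTCCCC at 111 to 101 bases, a match to GGGGANTCCCC (0.0457%, 15 windows). These matches describe the letters only.

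None of the 10 genes passed the test over all libraries (limma on log2(FPKM + 0.5), Benjamini-Hochberg adjusted p under 0.05), while 5.2% of all tested genes did. Without adjustment, 2 of the 10 had p under 0.05, H2-D1 and B2m, against 2891 of 13447 genes (21.5%). limma-voom on the recovered reads also called none of the 10. The median log2 change, Rspo2-AAV minus control, was -0.18 over the 10 genes, negative in 9, and 0.00252 over all tested genes, where 6668 were negative and 6779 positive. In whole liver RNA, fewer cells of a type and less RNA per cell cannot be told apart.

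The class I genes were among the most abundant messages of the liver. B2m had the 39th highest mean FPKM of the tested genes, H2-K1 the 82nd and H2-D1 the 154th. For all 3 genes, 5 of the 6 Rspo2-AAV libraries lay below every control library, a placing that 4.69% of tested genes reached with 5 or more libraries. The exception was Rspo2-AAV 2 in each case, the library with the high mitochondrial share. That library also had the lowest Rspo2 RNA of its group, Xist RNA and the highest FPKM sum.

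B2m, on chromosome 2 from 122147686 to 122153083, was at 1952, 1893, 1269, 1712, 1661 and 1681 FPKM in controls 1 to 6. In Rspo2-AAV 1, 2, 4, 5, 6 and 7 it was at 1011, 1836, 1201, 1073, 1048 and 1018 FPKM. Control 3 was the lowest control, and Rspo2-AAV 2 was as high as the controls. The mean was 1695 ± 240.1 FPKM (SD, n = 6) in the controls and 1198 ± 320.2 (SD, n = 6) in the Rspo2-AAV group. On the log2 scale the difference was -0.52 ± 0.18 (SE, 95% interval -0.91 to -0.14, limma adjusted p = 0.11), which missed the threshold.

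B2m was called lower in 3 of the 24 alternative fits, and all 3 leave out Rspo2-AAV 2, so they are not separate support. It was not called without Rspo2-AAV 4 and 5 (-0.50, limma adjusted p = 0.29). In numbers 1 to 3 alone, where no gene was called, its change was -0.30 (limma adjusted p = 0.92). Without Rspo2-AAV 2 the change was -0.65 (95% interval -0.94 to -0.36, limma adjusted p = 0.0142), and 3.64% of genes were then called lower. Among numbers 4 to 7 alone it was -0.64 (limma adjusted p = 0.00621, 6.92% of genes called lower), and without the 3 libraries with Xist RNA -0.71 (adjusted p = 0.00424, 6.75% called lower). Rescaled to TPM, Rspo2-AAV 2 had 2955 and the other Rspo2-AAV libraries 2365 to 2843, all below the controls at 3057 to 4658. That order, with no overlap and the Rspo2-AAV group lower, held for 0.848% of tested genes on this scale, where the change of B2m was -0.52 (limma adjusted p = 0.0678).

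H2-D1, on chromosome 17 from 35262730 to 35267499, was at 459.7, 446, 373, 339, 321 and 328 FPKM in controls 1 to 6. The Rspo2-AAV libraries gave 305, 388, 278, 283, 288 and 263 FPKM. Controls 1 to 3 were higher than controls 4 to 6, and the groups overlapped through Rspo2-AAV 2. The means were 378 ± 61.0 and 300.8 ± 44.7 FPKM (SD, n = 6 each), a log2 change of -0.33 ± 0.14 (SE, 95% interval -0.62 to -0.03, limma adjusted p = 0.198). Without Rspo2-AAV 2 the change was -0.40 with an adjusted p of 0.0709.

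H2-K1, on chromosome 17 from 33996017 to 34000333, had the smallest spread of the 10 genes. It was at 760.4, 685, 589, 621, 653 and 628 FPKM in controls 1 to 6. The Rspo2-AAV libraries gave 516, 666, 559, 572, 569 and 561 FPKM. The coefficient of variation was 9.19% in the controls and 8.61% in the Rspo2-AAV group. Its log2 change was -0.19 ± 0.11 (SE, 95% interval -0.44 to 0.05, limma adjusted p = 0.356), and -0.24 (adjusted p = 0.182) without Rspo2-AAV 2. On the TPM scale only 2 of 6 Rspo2-AAV libraries for H2-K1 and 3 of 6 for H2-D1 lay below all controls, so the order seen in FPKM did not hold there, although both changes stayed negative (-0.19 and -0.32).

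**Figure D1:**
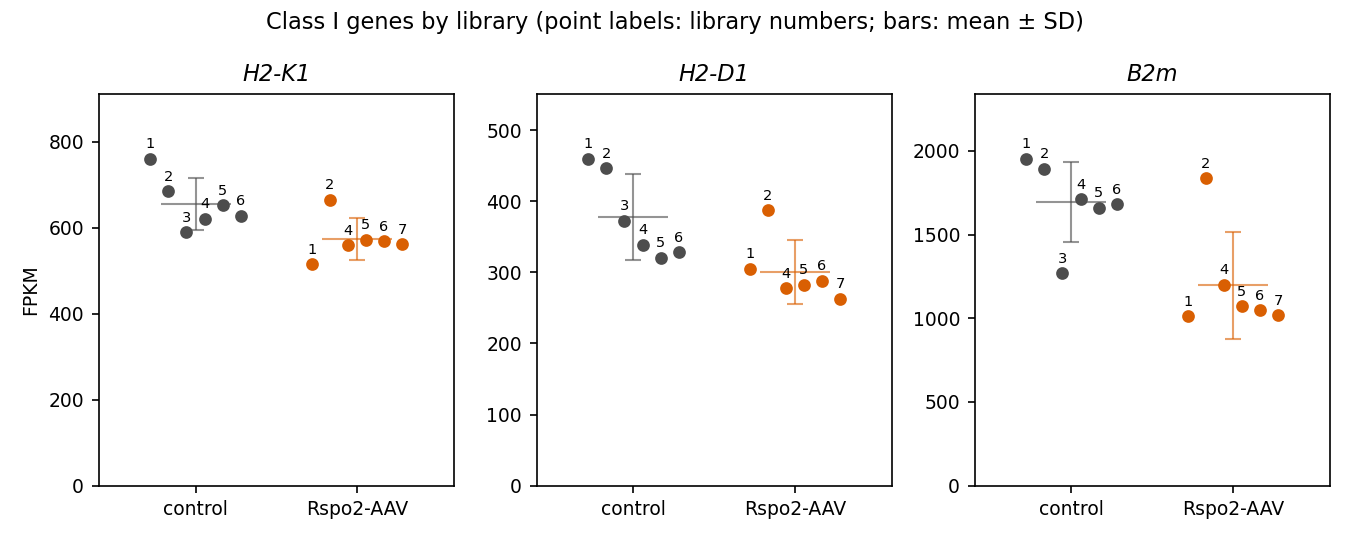
FPKM of H2-K1, H2-D1 and B2m in each library, with control in grey and Rspo2-AAV in orange, the library number above each point, and bars for the mean and SD of 6 libraries. In each panel every Rspo2-AAV library except number 2 lies below all 6 controls; B2m is at 1836 FPKM in that library and at 1011 to 1201 in the other Rspo2-AAV libraries.

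The light chain and the heavy chains did not keep one ratio. B2m FPKM divided by the summed FPKM of H2-K1 and H2-D1 was 1.32 to 1.78 in the controls. Among the Rspo2-AAV libraries it was 1.74 for number 2, 1.43 for number 4 and 1.22 to 1.25 for numbers 1, 5, 6 and 7, the last range lying below every control. The ratio of H2-D1 to H2-K1 was 0.491 to 0.651 in the controls and 0.469 to 0.592 in the Rspo2-AAV libraries. H2-K1 and H2-D1 are related class I genes, and how the counting split reads between such genes is uncertain.

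No class II chain passed the test, nor did Cd74, and their spread inside each group was wide. Cd74 was the most abundant, at 117, 176, 147, 209.6, 85.3 and 145 FPKM in controls 1 to 6 and 221, 125, 157, 122, 104 and 93.2 FPKM in the Rspo2-AAV libraries. The highest value was in Rspo2-AAV 1 and the lowest in control 5, so the groups overlapped almost fully. The log2 change of Cd74 was -0.10 ± 0.24 (SE, 95% interval -0.62 to 0.42, limma adjusted p = 0.856).

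H2-Eb1, a class II beta chain at 34305877 to 34316199 on chromosome 17, was at 45.0, 66.1, 44.3, 81.0, 35.2 and 59.6 FPKM in controls 1 to 6. The Rspo2-AAV libraries gave 89.6, 53.7, 61.6, 50.5, 40.4 and 35.5 FPKM. The means were the same to 3 digits, 55.2 ± 16.9 and 55.2 ± 19.3 FPKM (SD, n = 6 each), and the interval of the log2 change ran from -0.53 to 0.51 (limma adjusted p = 0.988).

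H2-Ab1, the beta chain of the I-A molecule, was at 36.8, 49.7, 38.5, 65.1, 27.5 and 48.4 FPKM in controls 1 to 6 and 62.6, 39.2, 52.2, 39.0, 32.2 and 28.3 FPKM in the Rspo2-AAV libraries. H2-Aa, the alpha chain of the same molecule, was at 39.5, 46.0, 35.0, 62.2, 25.0 and 39.8 FPKM in the controls and 57.7, 39.3, 40.8, 30.1, 28.6 and 25.2 FPKM in the Rspo2-AAV libraries. Control 4 and Rspo2-AAV 1 were the high libraries of their groups for both genes. The log2 change was -0.07 ± 0.23 for H2-Ab1 (95% interval -0.56 to 0.42, limma adjusted p = 0.898) and -0.16 ± 0.23 for H2-Aa (95% interval -0.65 to 0.33, limma adjusted p = 0.739). Shifts inside these intervals are not excluded by 6 libraries a group.

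**Figure D2:**
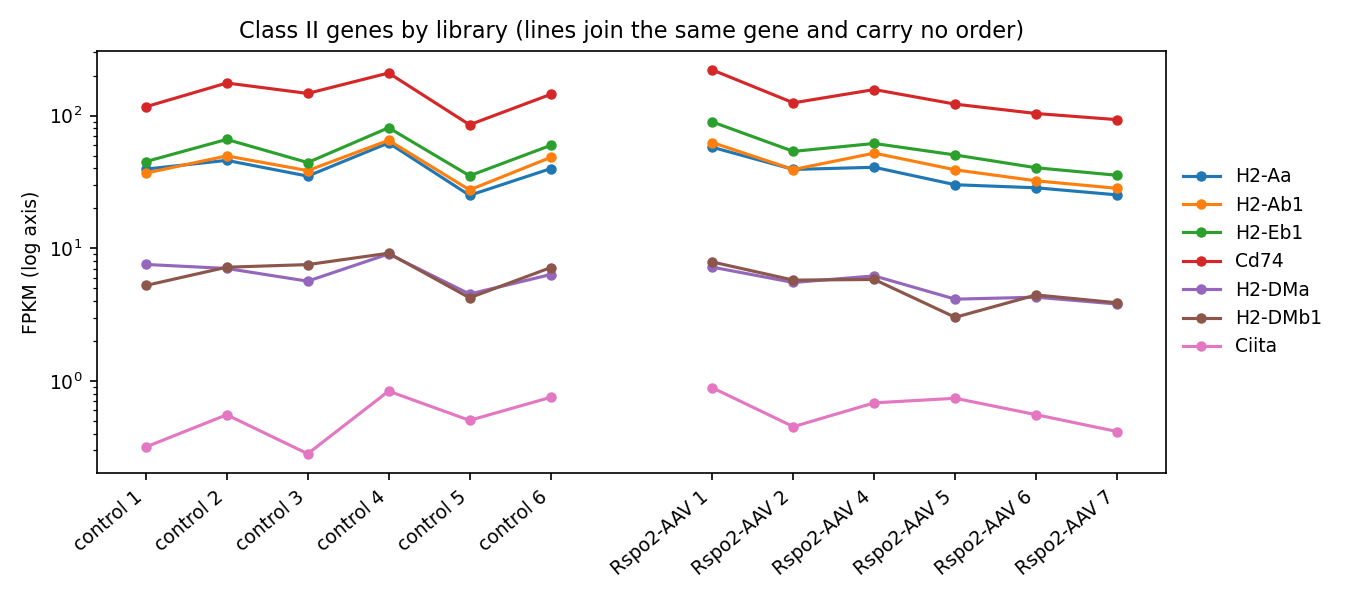
FPKM (log axis) of the 7 class II genes in each library, controls on the left and Rspo2-AAV libraries on the right, a line joining the values of each gene. The lines of H2-Aa, H2-Ab1, H2-Eb1 and Cd74 run nearly parallel, with control 4 and Rspo2-AAV 1 high and control 5 and Rspo2-AAV 7 low.

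The chains of the peptide exchange factor were far less abundant. H2-DMa was at 7.54, 7.04, 5.64, 9.05, 4.51 and 6.32 FPKM in controls 1 to 6 and 7.20, 5.51, 6.18, 4.13, 4.27 and 3.79 FPKM in the Rspo2-AAV libraries. H2-DMb1 was at 5.23, 7.19, 7.52, 9.16, 4.22 and 7.13 FPKM in the controls and 7.87, 5.74, 5.81, 3.01, 4.44 and 3.87 FPKM in the Rspo2-AAV libraries. For H2-DMa 3 of 6 Rspo2-AAV libraries lay below all controls, and for H2-DMb1 2 of 6. The log2 changes were -0.34 ± 0.18 for H2-DMa (95% interval -0.73 to 0.04, limma adjusted p = 0.293) and -0.38 ± 0.22 for H2-DMb1 (95% interval -0.85 to 0.09, limma adjusted p = 0.335). On the TPM scale 4 of 6 Rspo2-AAV libraries lay below all controls for H2-DMa and 2 of 6 for H2-DMb1.

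Ciita, on chromosome 16 from 10480059 to 10528418, was the only one of the 10 with a positive change. It was at 0.316, 0.554, 0.281, 0.836, 0.503 and 0.749 FPKM in controls 1 to 6 and 0.885, 0.451, 0.681, 0.738, 0.555 and 0.414 FPKM in the Rspo2-AAV libraries. These values rest on 40 to 213 reads a library. The log2 change was 0.12 ± 0.17 (SE, 95% interval -0.25 to 0.49, limma adjusted p = 0.736), and within numbers 4 to 7 it was -0.12. Dexi lies over Ciita on the opposite strand at a mean of 8.92 FPKM, and whether the counting used the strand is not given in the sources used here.

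The place of Rspo2-AAV 1 among the class II genes depended on the scale. In FPKM it lay above every control for 3 of the 7 (H2-Eb1, Cd74 and Ciita), and on the TPM scale for all 7. H2-Ab1 in TPM was at 176 in Rspo2-AAV 1, 60.03 to 124 in the controls and 63.1 to 107 in the other Rspo2-AAV libraries. H2-Aa in TPM was at 162 in Rspo2-AAV 1 and 54.7 to 117 in the controls. Rspo2-AAV 1 had the lowest sum of FPKM, and no other Rspo2-AAV library lay above all controls for a class II gene on either scale. None of the 7 passed the test on the TPM scale.

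In order of mean FPKM, the 10 genes ran B2m, H2-K1, H2-D1, Cd74, H2-Eb1, H2-Ab1, H2-Aa, H2-DMb1, H2-DMa and Ciita. The neighbours H2-Eb1, H2-Ab1 and H2-Aa differed by less than the spread between libraries, as did H2-DMa and H2-DMb1. Inside single libraries H2-Eb1 to H2-Ab1 was 1.15 to 1.33 in the controls and 1.18 to 1.43 in the Rspo2-AAV libraries. Cd74 to H2-Ab1 was 2.99 to 3.82 and 3.02 to 3.53. The chains of 1 molecule, H2-Aa and H2-Ab1, stood at ratios of 0.822 to 1.07 and 0.772 to 1.00. Those of H2-DM, H2-DMa to H2-DMb1, ranged more widely, from 0.75 to 1.44 and 0.914 to 1.37. The controls alone varied by 2.30 to 2.48 times in H2-Aa, H2-Ab1, H2-Eb1 and Cd74 and by 1.29 to 1.54 times in the 3 class I genes.

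**Figure D3:**
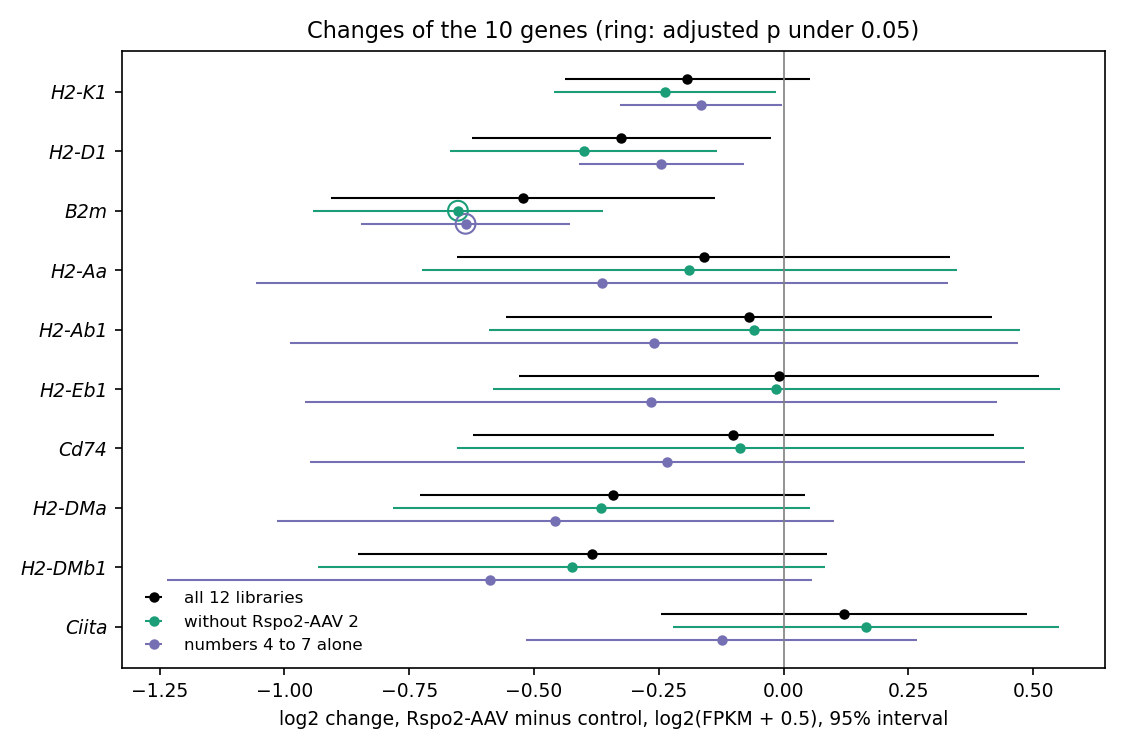
The log2 change of each of the 10 genes, Rspo2-AAV minus control on log2(FPKM + 0.5), with its 95% interval, over all 12 libraries (black), without Rspo2-AAV 2 (green) and in label numbers 4 to 7 alone (purple). A ring marks an adjusted p under 0.05, which B2m alone carries, in the latter pair of fits.

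Relations between genes were computed for 5 pairs over the 12 libraries, on log2(FPKM + 0.5), with 100000 permutations and p-values adjusted over the 5. Libraries share a scaling and, in part, their makeup of cells, which these relations do not separate. Cd74 followed H2-Ab1 with Pearson r = 0.971 (permutation, n = 12, adjusted p = 2.5e-05, from an unadjusted p of 1e-05, the smallest these permutations can give) and Spearman rho = 0.944 (adjusted p = 0.00015). Without the 2 libraries farthest from the median of Cd74 the r was 0.955, and within numbers 4 to 7 it was 0.994 (exact permutation, n = 7, p = 0.000198). Ciita followed H2-Ab1 less closely, with r = 0.675 (permutation, adjusted p = 0.0215), rho = 0.685 (adjusted p = 0.0207), r = 0.669 without 2 libraries, and 0.899 within numbers 4 to 7 (exact permutation, p = 0.00913). It missed the threshold when control 4 (r = 0.605) or Rspo2-AAV 1 (r = 0.594) was left out.

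B2m followed H2-K1 with r = 0.914 (permutation, n = 12, adjusted p = 2.5e-05) and rho = 0.930 (adjusted p = 0.00015). The r was 0.891 without 2 libraries, 0.829 in the 6 controls, 0.900 in the 6 Rspo2-AAV libraries and 0.922 within numbers 4 to 7 (exact permutation, p = 0.0246). On the TPM scale it was 0.652. Tap1, which pumps peptides into the endoplasmic reticulum for class I, followed H2-K1 with r = 0.824 (permutation, adjusted p = 0.00157) and rho = 0.818 (adjusted p = 0.00317). Its r was 0.851 without 2 libraries and 0.771 within numbers 4 to 7, where it missed the threshold (exact permutation, p = 0.0548), and 0.675 on the TPM scale. Across the classes, H2-Ab1 and H2-K1 gave r = -0.174 (permutation, adjusted p = 0.588) and rho = -0.168 (adjusted p = 0.602), with r = 0.0817 without 2 libraries, 0.0875 within numbers 4 to 7 (exact permutation, p = 0.85) and 0.353 on the TPM scale.

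Outside the 10 genes, the protein-coding genes most like H2-Ab1 over the 12 libraries were Slamf8, a receptor of myeloid cells (r = 0.873), Dusp5 (0.866), Bex3 (0.846), Mfge8 (0.840) and Cdc42ep3 (0.839). Those most like H2-K1 were Lmf1, which matures lipases (r = 0.949), the respiratory chain subunit Uqcrc2 (0.949), Sephs2 (0.944), the oxysterol hydroxylase Cyp7b1 (0.941) and Ppa2 (0.940). None of them passed the test between groups. These coefficients are the highest of 13447 genes and are given as a description.

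The remaining genes of class II loading did not pass the test either, with 0 of 10 tested called higher and 0 called lower (13 found, median log2 change -0.29). In this list 3 genes had an unadjusted p under 0.05, all lower, and limma-voom called 0. The count called lower rose to 2 without Rspo2-AAV 1 (Ctss and Lgmn), where 390 of 13447 genes were called lower. It rose to 1 (Ctss) without control 5, with a term for the number set or in numbers 4 to 7 alone, where 236, 455 and 931 genes were. Without the libraries with Xist RNA it rose to 3 (Ctss, Lgmn and Ctsb), where 908 genes were. Ctsl was called higher in numbers 4 to 7 alone, where 853 genes were. The most abundant were the lysosomal proteases Ctsb and Ctsl. Ctsb was at 162 ± 12.8 FPKM (SD, n = 6) in the controls and 128 ± 15.6 in the Rspo2-AAV group, with a log2 change of -0.35 (limma adjusted p = 0.0873), and Ctsl was at 95.1 ± 29.5 and 118 ± 18.2 FPKM, with 0.35 (adjusted p = 0.314). Ctss, the protease that trims Cd74 in antigen-presenting cells, was chosen after its values were seen. It was at 74.5 ± 21.7 and 43.6 ± 13.5 FPKM (SD, n = 6 each), with 5 of 6 Rspo2-AAV libraries below all controls and a log2 change of -0.76 (limma adjusted p = 0.0581). H2-Ea-ps was at 0 in every library.

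The factors that bind class II promoters beside Ciita gave 0 calls among 7 tested (Rfx5, Rfxap, Rfxank, Creb1, Nfya, Nfyb and Nfyc, median log2 change 0.10, positive in 7), 0 with an unadjusted p under 0.05 and 0 by limma-voom. Nfyc and Nfyb, subunits of the Y box factor NF-Y whose core letters are marked in the promoters above, changed by 0.16 (limma adjusted p = 0.411) and 0.06 (adjusted p = 0.8). Class I peptide supply and loading gave 0 calls among 15 tested, with a median of -0.18, 13 of 15 negative, 2 lower at an unadjusted p under 0.05 and 0 called by limma-voom. The count called lower was 1 without control 3 (Tap1), 2 in numbers 4 to 7 alone (Tap1 and Nlrc5) and 2 without the libraries with Xist RNA (Tap1 and Psmb8). In these fits 492, 931 and 908 of all tested genes were called lower. The most abundant of these were the chaperone Calr, at 299 ± 107 and 239 ± 36.2 FPKM (SD, n = 6 each, log2 change -0.25, limma adjusted p = 0.588), and the disulphide isomerase Pdia3, at 175 ± 67.0 and 130 ± 14.1 FPKM (-0.35, adjusted p = 0.39). Of 16 tested class I genes outside the classical pair, 3 were called higher and 0 lower, with 8 changes positive and 8 negative, where 2.55% of all genes were called higher. At an unadjusted p under 0.05, 4 of the 16 were higher and 0 lower, and limma-voom called 3. Without Rspo2-AAV 2, 1 of the 16 was called lower (Azgp1), in numbers 4 to 7 alone 2 (Azgp1 and H2-T23) and without the libraries with Xist RNA 3 (also Fcgrt). Of all tested genes, 490, 931 and 908 were called lower there. H2-Q6 was called higher without Rspo2-AAV 4 (0.66, limma adjusted p = 0.0192) and without Rspo2-AAV 4 and 5 (0.69, adjusted p = 0.0421). Those fits called 253 and 117 genes higher.

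H2-Q1, a class I-like gene of the Q region, was at 2.64, 2.11, 5.03, 6.55, 4.66 and 8.64 FPKM in controls 1 to 6. It was at 15.1, 12.7, 25.5, 35.2, 26.5 and 46.8 FPKM in the Rspo2-AAV libraries. In FPKM every Rspo2-AAV library lay above every control, a placing that 1.62% of tested genes had in this direction. After rescaling to TPM, Rspo2-AAV 2 lay below control 6, so the groups overlapped on that scale. The log2 change was 2.33 ± 0.36 (SE, limma adjusted p = 0.00389), with means of 4.94 ± 2.44 and 27.0 ± 12.7 FPKM (SD, n = 6 each).

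H2-Q2, the next gene of that region, was low in all libraries, at 0.308 to 0.628 FPKM in the controls and 0.781 to 2.12 in the Rspo2-AAV libraries. In FPKM its groups did not overlap either, and its log2 change was 1.03 ± 0.18 (SE, limma adjusted p = 0.00749) on 12 to 71 reads a library. Mr1, which presents vitamin B metabolites to MAIT cells, was at 0.647 ± 0.212 and 1.17 ± 0.227 FPKM (SD, n = 6 each), with a log2 change of 0.55 ± 0.15 (limma adjusted p = 0.0495). Mr1 lost its call when any of 9 libraries was left out (controls 1, 2, 4, 5 and 6 and Rspo2-AAV 4, 5, 6 and 7), with an adjusted p of up to 0.116.

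H2-Q10, a secreted class I molecule made by the liver, was the most abundant of the Q genes and did not pass the test. It was at 317, 219, 231, 452, 442 and 397 FPKM in the controls and 228, 428, 383, 457, 441 and 428 FPKM in the Rspo2-AAV libraries (log2 change 0.22, limma adjusted p = 0.627). H2-Q10 and the low-lying H2-Q1 and H2-Q2 are close copies of each other, so part of the reads given to one may come from another. The calls for H2-Q1 and H2-Q2 were kept on the TPM scale and with any 1 library left out, and were lost in numbers 1 to 3 alone, where no gene of the table was called.

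Of 21 tested genes of interferon gamma and its signalling, 6 were called lower and 0 higher by limma, where 2.65% of all tested genes were called lower. Their median log2 change was -0.36, and 20 of 21 were negative. Interferon gamma itself (Ifng) was at most 0.08 FPKM and was not tested. Ifngr2, the signalling chain of the interferon gamma receptor, was at 7.97, 8.70, 6.77, 10.01, 6.21 and 6.98 FPKM in controls 1 to 6 and 5.03, 4.65, 5.32, 4.63, 4.50 and 4.19 FPKM in the Rspo2-AAV libraries. In FPKM the groups did not overlap, a placing that 1.62% of tested genes had in the lower direction (log2 change -0.65 ± 0.11, SE, limma adjusted p = 0.0072). Irf2, a factor that binds interferon-response elements, had no overlap either, at 6.86 ± 0.878 and 4.21 ± 0.615 FPKM (SD, n = 6 each, log2 change -0.65, limma adjusted p = 0.00749).

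Iigp1, a GTPase induced by interferon gamma, was at 95.2, 119, 77.6, 126, 122 and 140.2 FPKM in the controls and 67.9, 71.0, 73.2, 47.3, 48.8 and 56.3 FPKM in the Rspo2-AAV libraries. In FPKM it fell in every Rspo2-AAV library below the lowest control, by -0.89 ± 0.17 on the log2 scale (limma adjusted p = 0.00967). On the TPM scale Rspo2-AAV 1 lay above the lowest control for Iigp1, Ifngr2 and Irf2, so their groups overlapped there. Irgm1 (-0.50, limma adjusted p = 0.0302), Gbp6 (-0.85, adjusted p = 0.0321) and the T cell attractant Cxcl9 (-0.75, adjusted p = 0.0438) were also called lower. These 3 calls were less firm: each was lost without controls 2, 4 or 6 or Rspo2-AAV 5, 6 or 7, that of Irgm1 also without control 5 (adjusted p up to 0.0757), that of Gbp6 without Rspo2-AAV 4 (up to 0.0807) and that of Cxcl9 without control 5 or Rspo2-AAV 1, 2 or 4 (up to 0.0995). The count of 6 fell to 2 on the TPM scale (Ifngr2 and Iigp1), to 3 without Rspo2-AAV 4 and 5, and to 0 in numbers 1 to 3 alone, and omitting a single library gave 3 to 7.

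**Figure D4:**
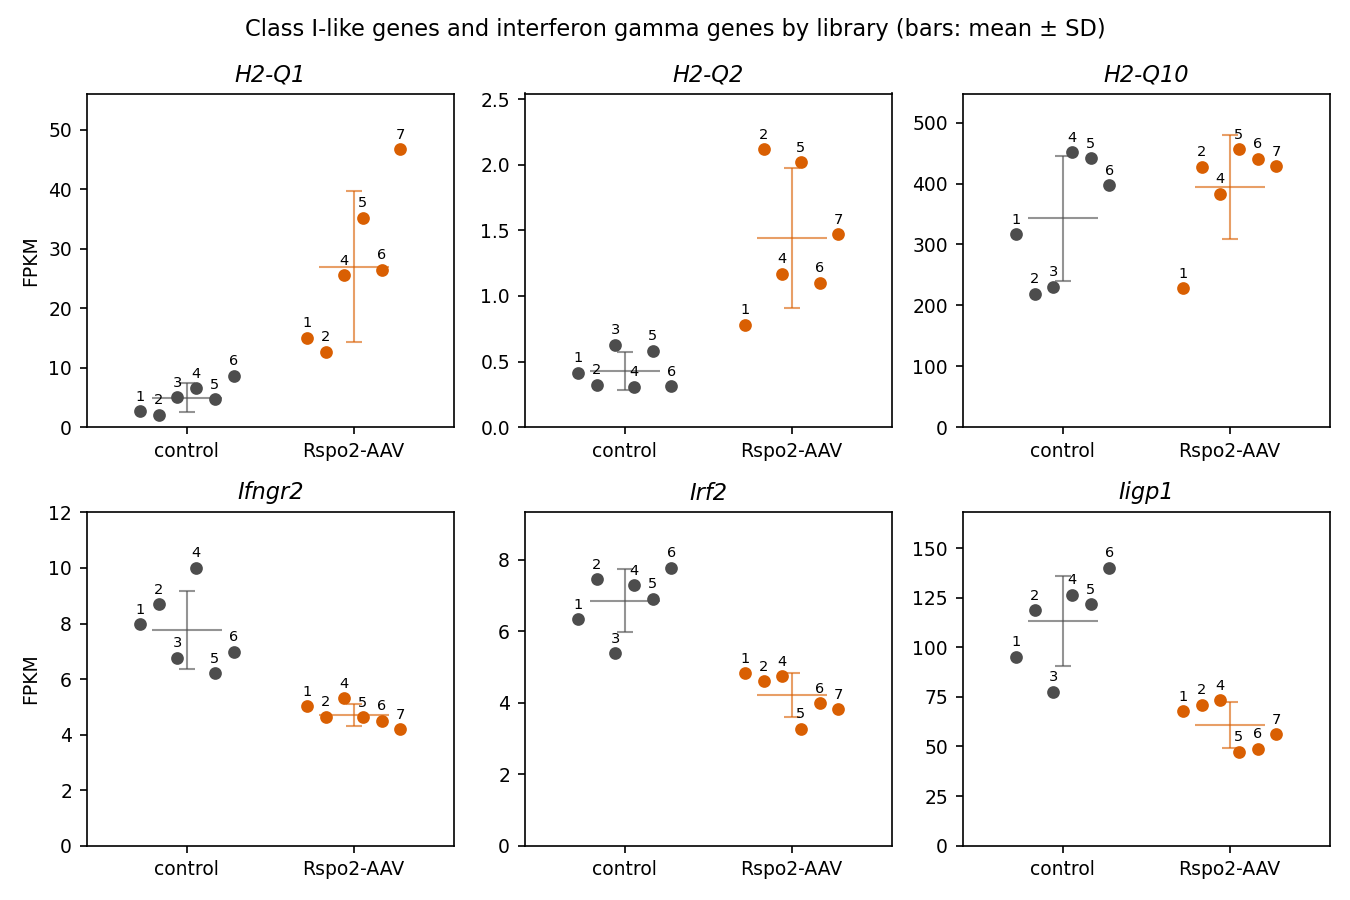
FPKM by library of 3 class I-like genes (H2-Q1, H2-Q2, H2-Q10) and 3 genes of interferon gamma signalling or response (Ifngr2, Irf2, Iigp1), with library numbers above the points and bars for the mean and SD of 6 libraries. H2-Q1 and H2-Q2 are higher and Ifngr2, Irf2 and Iigp1 lower in every Rspo2-AAV library than in any control, while H2-Q10 overlaps.

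Among markers of the cells that carry class II molecules, some macrophage markers were called lower, and no B cell or dendritic cell marker was called. Of 11 Kupffer cell markers tested, 3 were called lower by limma, against 2.65% of all tested genes, and limma-voom called 4. Those called by limma were Marco (log2 change -2.28, limma adjusted p = 0.00864), Clec4f (-1.40, adjusted p = 0.0177) and Vsig4 (-0.996, adjusted p = 0.0245). All 11 changes were negative with a median of -0.83, and their summed FPKM was 617 to 1297 in the controls and 422 to 796 in the Rspo2-AAV libraries. The call for Clec4f was lost without Rspo2-AAV 6 (adjusted p = 0.0501) and that for Vsig4 without any of controls 2 and 4 and Rspo2-AAV 4, 5, 6 and 7 (up to 0.0629). Among monocyte and macrophage markers 2 of 11 were called lower, against the same 2.65% of all tested genes, while limma-voom called 1. They were Cd68 (-0.56, limma adjusted p = 0.0368) and Trem2 (-0.67, adjusted p = 0.0457). Of the 11 changes, 9 were negative and 2 positive, with a median of -0.42. The sums were 258 to 524 FPKM in the controls and 217 to 377 in the Rspo2-AAV libraries. Cd68 lost its call without controls 2, 3, 4 or 6 or Rspo2-AAV 4, 5, 6 or 7 (adjusted p up to 0.0913), and Trem2 without any control or Rspo2-AAV 4, 5, 6 or 7 (up to 0.084).

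B cell markers gave 0 calls among 6 tested by limma or limma-voom (4 higher at an unadjusted p under 0.05), but 3 libraries stood out. Their summed FPKM was 4.19 to 8.39 in the controls, with Rspo2-AAV it was 18.3 in number 1, 15.2 in number 2, 13.8 in number 4 and 5.52 to 6.87 in the other 3. Not all listed B cell markers did so, and Bank1 and Cd37 stayed inside the range of the controls there. H2-Ob, a chain of the H2-DM inhibitor of B cells, is outside the rule for named genes. It stood at 1.57, 1.49 and 1.10 FPKM in those 3 libraries and 0.278 to 0.525 in the controls. H2-Oa, also of class II loading, overlapped, at 0.452, 0.545 and 0.739 FPKM against 0 to 0.630 in the controls. In H2-Ab1 the same 3 libraries were at 62.6, 39.2 and 52.2 FPKM, inside the range of the controls, but on the TPM scale, at 176, 63.1 and 107, number 1 lay above every control (60.03 to 124).

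Dendritic cell markers gave 0 calls among 7 tested by limma or limma-voom (13 found, 0 at an unadjusted p under 0.05, median log2 change 0.02), with summed FPKM of 8.06 to 14.8 in the controls and 8.59 to 15.2 in the Rspo2-AAV libraries. T and NK cell markers gave 1 call lower among 5 tested, against 2.65% of all tested genes, with 4 changes negative and 1 positive. It was the granzyme Gzma (-0.68, limma adjusted p = 0.0397), on 2 to 26 reads a library. That call was lost with limma-voom and without controls 2, 4, 5 or 6 or Rspo2-AAV 4, 5, 6 or 7 (adjusted p up to 0.0984). Sinusoidal endothelial markers gave 0 calls among 10 tested by limma or limma-voom (1 lower at an unadjusted p under 0.05), with sums of 70.7 to 127 and 60.5 to 117 FPKM. Hepatocyte markers, which define the tissue, gave 0 calls among 8 tested (1 higher and 1 lower at an unadjusted p under 0.05), with a median change of 0.02, and cholangiocyte markers 0 among 4. No listed marker of these cell types was at 0 in all libraries, and the part of each cell type in the class I and class II values was not tested.

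**Figure D5:**
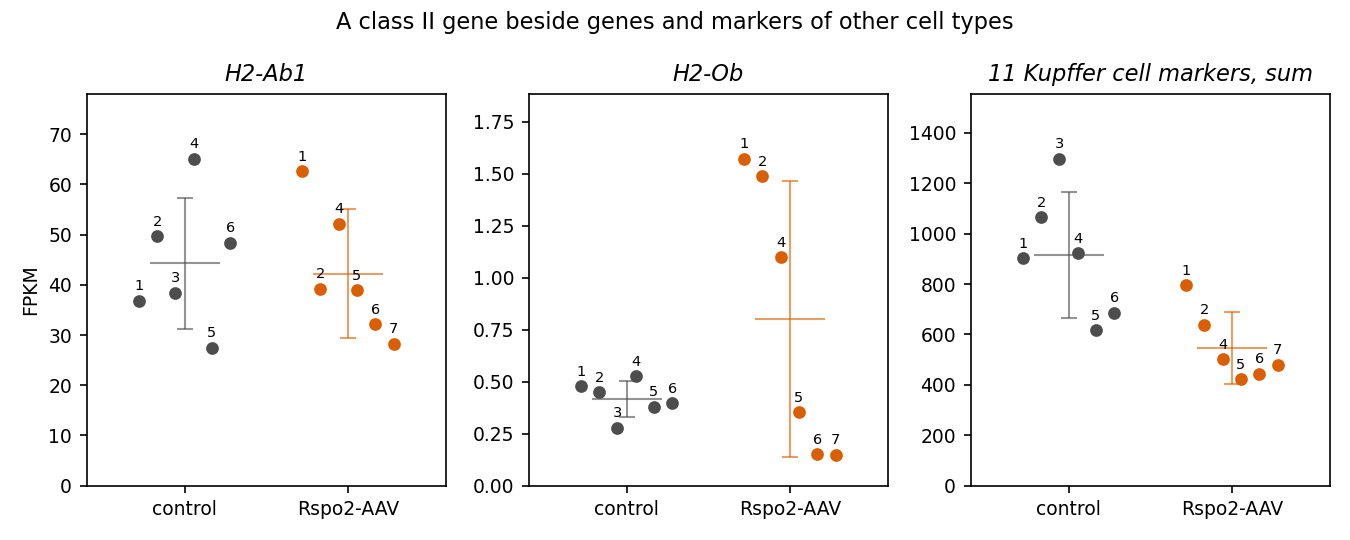
FPKM by library of H2-Ab1 and H2-Ob and the summed FPKM of 11 Kupffer cell markers, with library numbers above the points and bars for the mean and SD of 6 libraries. H2-Ab1 overlaps between the groups, H2-Ob is high in Rspo2-AAV 1, 2 and 4, and the Kupffer cell sum is 422 to 796 FPKM with Rspo2-AAV against 617 to 1297 in the controls.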

How the data were processed

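The authors deposited one table of FPKM values per gene and library for the 12 liver samples. The submitters' processing notes name HISAT2 2.0.5, featureCounts 1.5.0-p3, DESeq2 1.20.0 and the builds GRCm38 and mm10. Their roles and the use of strand are not given in the sources used here. FPKM times gene length came out as whole reads (within 0.01) for 100.0% of values. The library size in the deposited FPKM differs from the recovered total: 25238045 against 22195576 in Rspo2-AAV 1 and 15361657 against 17796257 in Rspo2-AAV 2.

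Testing covered genes averaging 0.5 FPKM or more, on log2(FPKM + 0.5) with limma 3.58.1 in R 4.3.3 (moderated, with an intensity trend), two-sided, Benjamini-Hochberg over 13447 genes. A fold on this scale understates the change of low genes. The procedure was tested on simulated data. The 10 genes, the pathway and marker lists and the libraries left out were chosen with earlier results of these data known. Named genes were the 10, up to 6 called genes of each pathway list by p, or its 2 most abundant where none was called, up to 3 called markers, and the 5 genes most correlated with H2-Ab1 and with H2-K1. Alternatives covered the pseudocount, the filter, TPM scaling, limma-voom on recovered reads, label numbers and omitted libraries. Promoters were cut at GENCODE exons of the same strand.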

Additional observations from a re-analysis of the deposited data

Results flagged for a closer look

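In 62 groups of 6 libraries (the named genes in each group), 3 had a library whose gap to its nearest neighbour was large against the whole range of its group. Chance gives about 1 in 20 for independent groups, but these groups share the same libraries. The count therefore cannot be set against chance. H2-D1 was at 388 FPKM in Rspo2-AAV 2, the highest of its group. B2m was at 1836 FPKM in the same library, again the highest of its group. The Kupffer cell marker Vsig4 was at 82.7 FPKM in control 3, the highest control. Mitochondrial genes took 10.5% of the reads in Rspo2-AAV 2. It also had the lowest Rspo2 RNA of its group (49.9 FPKM), Xist RNA and the highest FPKM sum. The part of each of these in the class I values of that library was not tested.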

How the results depend on the processing

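The count of all genes called higher and lower, 343 and 356, became 195 and 216 with no filter on low values, 197 and 183 with TPM scaling, 145 and 152 with label number as a replicate block, 853 and 931 in numbers 4 to 7 alone, 0 and 0 in numbers 1 to 3 alone, 807 and 908 without the libraries with Xist RNA, and 117 and 120 without Rspo2-AAV 4 and 5. Omitting 1 library gave 162 to 421 higher and 170 to 492 lower. Of the 10 genes, 1 (B2m) was called lower in numbers 4 to 7 alone and 1 without the libraries with Xist RNA, and omitting 1 library gave 0 to 1. H2-K1, H2-D1, B2m and H2-DMa stayed negative in all 24 alternatives. The log2 change turned positive in numbers 1 to 3 alone for H2-Aa (0.25), H2-Ab1 (0.26), H2-Eb1 (0.44), Cd74 (0.20) and H2-DMb1 (0.032), under the replicate block for H2-Ab1 (0.00418), H2-Eb1 (0.052) and Cd74 (0.00964), and for H2-Eb1 with a term for the number set (0.026). Omitting 1 library gave -0.19 to 0.051 for H2-Ab1, -0.16 to 0.11 for H2-Eb1 and -0.25 to 0.013 for Cd74, each highest without control 4. It turned negative for Ciita in numbers 4 to 7 (-0.12) and for Nfyb under the block (-0.029) and in numbers 1 to 3 (-0.10), and positive for Calr in numbers 4 to 7 (0.15). The r of H2-Ab1 and H2-K1 turned positive with TPM scaling (0.353) and ranged from -0.323 to 0.0651 with 1 library omitted, the highest without Rspo2-AAV 1. The cause was not tested. No interaction of vector and number set passed for any of the 10 genes (limma adjusted p = 0.778 for B2m). The deviations of same-numbered libraries from their group means correlated at -0.249 to 0.156, so the numbers are not taken to pair them. Only control 4 and Rspo2-AAV 4 shared a number and were each other's closest match in these deviations. Under the block, B2m changed by -0.56 (limma adjusted p = 0.221), none of the 10 genes was called, and the count of interferon gamma genes called lower went from 6 to 2.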
